A study of Mus musculus with 36 samples.

Results

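The regions described here are CpG clusters that carried almost no DNA methylation although they lay away from every transcription start in the GENCODE annotation. Of 16391 clusters on the autosomes with a value in every sample, 2829 lay more than 1 kb from every start, and 284 of these (10.0%) had a mean methylation level under 10% over the 18 Control samples. A CpG cluster is a run of at least 20 listed cytosine positions, each at most 100 bp from the next, and its level is the mean over its positions with a value in all 36 samples. Starts were those of all GENCODE M21 transcripts on GRCm38, and the distance was taken from the nearest edge of the cluster. The Control levels chose the regions, so their low level is a description and not a finding.

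The samples were reduced representation bisulfite sequencing (RRBS) libraries of B3, a mouse pre-B cell line. In the Ikaros series the cells carried a retroviral HA-Ikaros-ERt2-IRES-GFP construct, whose Ikaros fusion protein moves into the nucleus when 4-hydroxytamoxifen (4-OHT) is added. The Control series carried the ERt2-IRES-GFP vector without Ikaros, and both were pools of cells sorted for GFP, of 1 cell line. Each series was sampled at 0, 2, 6, 12, 18 and 24 h with 3 replicates, which gave 18 samples a series. All samples are labelled with 0.5 µM 4-OHT, whereas the study's methods describe none at 0 h. Replicates are labelled as batches, with batches 1 and 4 for replicates 1 and 3, batch 2 for replicate 2 at 0 h and batch 3 for replicate 2 later. By the study's methods the batches were repeats of the experiment, and the 0 h cells were collected apart from the induced ones, so a difference of 0 h from later times and a difference in collection cannot be told apart. The number of reads behind each level is not given in the tables, so the spread between samples is the only error given. At the 13390 listed positions of these clusters the share without a value was 0.411% in the Control median and 0.321% in the Ikaros median, with the highest shares in Control 0 h replicate 1 (7.80%) and Ikaros 24 h replicate 2 (2.40%).

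In mammals most CpG dinucleotides are methylated, and CpG islands, short stretches rich in G, C and CpG, are the main exception. Most unmethylated islands cover the start of a gene. Islands away from known starts can be starts of transcripts that the annotation lacks, enhancers, or small genes read by RNA polymerase III, and many of them are methylated in a given cell type. MspI, the enzyme used in RRBS, cuts at CCGG, so the positions measured lie near such sites.

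The sequences that follow show what such clusters look like, as 200 bases of GRCm38 (forward strand) around the middle of a cluster, with every CG dinucleotide in capitals. The first 2 are among the genic clusters with the most listed positions, in a Lncppara intron and in the coding exon of Foxc1.
Lncppara intron, chr15:85671190-85671389: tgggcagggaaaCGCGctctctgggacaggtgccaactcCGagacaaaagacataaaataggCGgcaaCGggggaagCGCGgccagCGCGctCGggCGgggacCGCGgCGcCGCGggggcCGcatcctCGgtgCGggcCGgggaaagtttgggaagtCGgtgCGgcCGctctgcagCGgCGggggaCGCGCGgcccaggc
Foxc1 exon, chr13:31808060-31808259: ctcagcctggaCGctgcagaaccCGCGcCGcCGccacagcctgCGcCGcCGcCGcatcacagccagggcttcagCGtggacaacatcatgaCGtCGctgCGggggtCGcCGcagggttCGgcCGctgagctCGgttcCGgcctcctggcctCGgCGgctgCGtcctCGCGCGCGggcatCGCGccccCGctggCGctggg
The next 3 are the intergenic clusters with the most positions, upstream of the microRNA host gene Mir17hg, upstream of Nr4a3 and near Neurod2.
Mir17hg upstream, chr14:115040777-115040976: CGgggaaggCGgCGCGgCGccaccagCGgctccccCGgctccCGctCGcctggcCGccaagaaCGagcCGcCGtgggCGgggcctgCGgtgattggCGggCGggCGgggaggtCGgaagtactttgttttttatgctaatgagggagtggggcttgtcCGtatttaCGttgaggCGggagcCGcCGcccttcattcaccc
Nr4a3 upstream, chr4:48043194-48043393: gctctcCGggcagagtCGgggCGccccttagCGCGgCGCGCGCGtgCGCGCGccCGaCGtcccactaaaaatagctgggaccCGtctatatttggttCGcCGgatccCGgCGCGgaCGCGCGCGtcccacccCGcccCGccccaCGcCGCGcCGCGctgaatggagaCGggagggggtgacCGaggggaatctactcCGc
Neurod2 upstream, chr11:98338647-98338846: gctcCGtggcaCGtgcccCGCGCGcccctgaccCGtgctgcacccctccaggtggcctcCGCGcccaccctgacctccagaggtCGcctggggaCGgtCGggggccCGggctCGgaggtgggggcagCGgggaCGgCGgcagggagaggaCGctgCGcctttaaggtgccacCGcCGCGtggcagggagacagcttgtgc
A further 2 are far from any start, in an Arid1b intron and downstream of Runx3.
Arid1b intron, chr17:5189870-5190069: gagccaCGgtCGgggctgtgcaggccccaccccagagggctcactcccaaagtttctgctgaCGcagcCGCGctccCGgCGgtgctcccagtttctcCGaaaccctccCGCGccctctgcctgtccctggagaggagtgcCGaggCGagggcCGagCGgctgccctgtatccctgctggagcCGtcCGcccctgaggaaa
Runx3 downstream, chr4:135206223-135206422: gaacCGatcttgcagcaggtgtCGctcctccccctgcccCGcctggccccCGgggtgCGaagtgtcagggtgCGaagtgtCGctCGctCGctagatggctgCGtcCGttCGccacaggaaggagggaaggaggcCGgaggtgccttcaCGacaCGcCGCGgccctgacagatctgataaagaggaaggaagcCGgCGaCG
The last pair was chosen after the values were seen. It gives the cluster with the largest difference between the series, near Zfp36 (nearest start Gm44710), and the cluster with the most positions among those over a tRNA gene, near Ctc1. The label of the latter names the tRNA gene that the whole cluster overlaps. The 200 bases shown are the middle of that cluster and were not checked to hold the gene.
Zfp36 neighbour, chr7:28376445-28376644: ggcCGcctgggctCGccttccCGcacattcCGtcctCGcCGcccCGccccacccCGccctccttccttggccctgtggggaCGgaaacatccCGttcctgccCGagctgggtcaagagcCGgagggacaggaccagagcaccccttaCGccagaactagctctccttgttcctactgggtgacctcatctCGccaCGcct
Ctc1 neighbour, over n-TPcgg3, chr11:69040092-69040291: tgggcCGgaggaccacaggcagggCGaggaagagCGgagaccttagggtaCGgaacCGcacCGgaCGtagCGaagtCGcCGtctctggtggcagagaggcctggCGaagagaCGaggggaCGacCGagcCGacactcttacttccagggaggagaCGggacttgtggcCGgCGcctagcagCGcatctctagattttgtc

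These 9 stretches held from 15 CG dinucleotides (near Zfp36) to 34 (upstream of Nr4a3). Not all of them entered the levels, which rest on positions with a value in every sample. The Mir17hg window had such a value at 4 of its 24 CG, the Arid1b window at 12 of 16 and the Runx3 window at 12 of 20, while the other 6 windows lacked it at 1 to 3.

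The level divided the clusters away from starts into groups of very unequal size. Besides the 284 unmethylated ones, 573 had a Control mean from 10% to under 90% and 1972 of 90% or more. At most 1 kb from a start, 7713 of 13562 clusters (56.9%) were under 10%, so an unmethylated cluster was the most common state at a start and the least common one away from it. Just inside the 10% limit were the clusters upstream of D730005E14Rik (9.63%), near Zfp36 (9.31%) and in an exon of the long noncoding RNA 4930479H17Rik (9.08%), and just outside were those in Cx3cr1 and Gm49427 (10.5%), downstream of Fos (10.9%) and near 4930579D07Rik (11.4%).

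**Figure D1:**
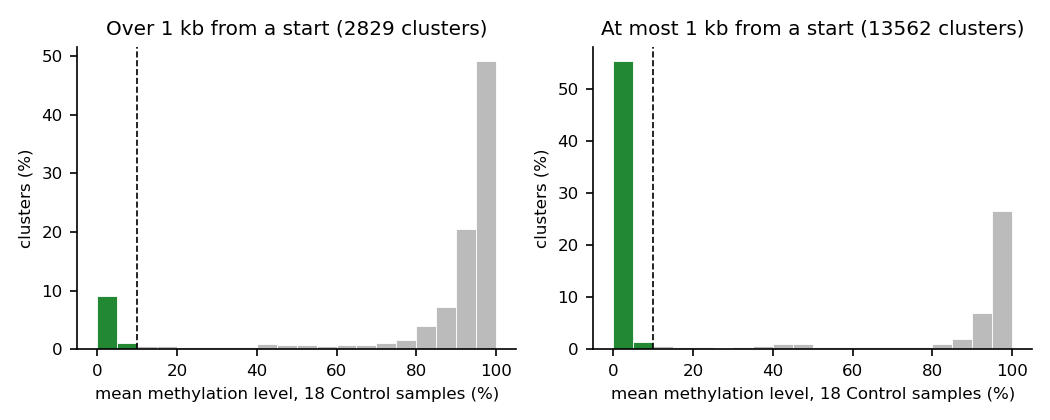
Share of autosomal CpG clusters by mean methylation level over the 18 Control samples, in steps of 5 percentage points, for the 2829 clusters over 1 kb from a transcription start (left) and the 13562 at most 1 kb from one (right). The dashed line is the 10% limit, and the green bars left of it hold 10.0% of the clusters on the left and 56.9% on the right.

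Within the chosen clusters the levels were mostly far below the limit. The Control mean was 0.636% in the median, from 0.107% to 9.63%, with 177 clusters under 1% and 256 under 5%. The Ikaros mean, which the choice did not use, had a median of 0.572%, with 0% as the lowest and 34.4% as the highest cluster. It was under 10% at 280 of the 284 clusters and at or over it at 4, near Zfp36, in 4930479H17Rik, near Gm3745 (10.1%) and near Gm20644 (10.2%). In 249 clusters every one of the 36 samples was under 10%. The spread over the 18 samples of a series was 0.529 percentage points in the Control median and 0.589 in the Ikaros median (SD).

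Genic clusters made up 127 of the 284 and intergenic ones 157. By the annotation of the cluster as a whole, 70 lay in introns, 38 overlapped coding exons, 7 overlapped untranslated regions without coding sequence and 12 overlapped exons of noncoding transcripts. Methylated clusters away from starts were placed otherwise, with 53.7% over coding exons and 26.6% intergenic, compared with 13.4% and 55.3% of the unmethylated ones. Partly methylated clusters lay between these, at 31.9% and 41.7%. These shares are a description of places in the genome that share neighbours and base composition, and no test was made of them.

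Distances to the nearest start ran from 1003 to 86692 bp with a median of 3694.5 bp, and 55 clusters lay more than 10 kb away, 41 of them intergenic and 14 genic. The median was 5395 bp for intergenic and 2307 bp for genic clusters. Of the intergenic clusters 105 lay upstream of the nearest start, and of the genic clusters 31. The median levels of both kinds were 0.764% (genic) and 0.560% (intergenic) in Control and 0.658% and 0.527% in Ikaros samples. Of the genic clusters 99 overlapped a protein-coding gene, at 27.1% of the way along the gene in the median, with 38 in the first 20% of the gene and 15 beyond 80%.

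**Figure D2:**
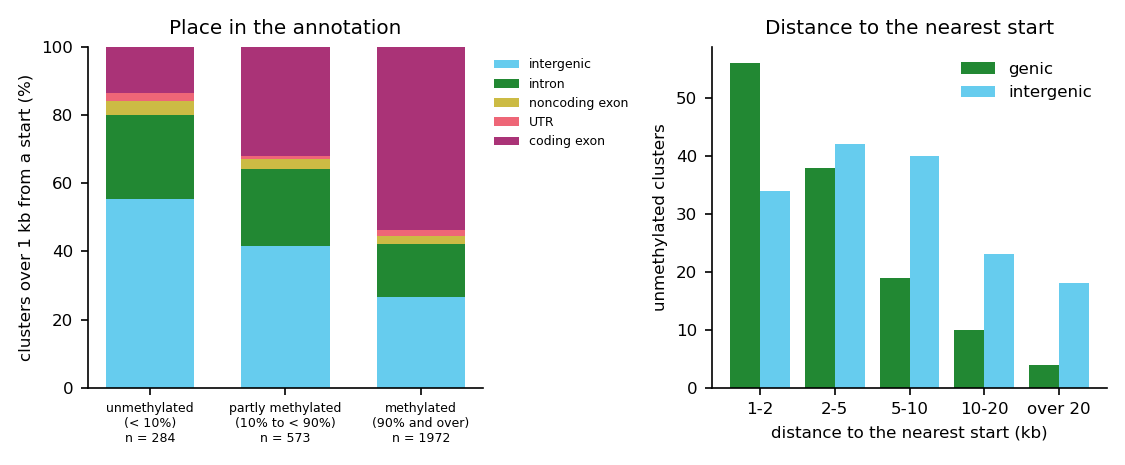
Left, share of clusters over 1 kb from a start in each kind of place in the GENCODE M21 annotation, for unmethylated, partly methylated and methylated clusters by Control mean. Right, number of genic and intergenic unmethylated clusters by distance from the nearest start in kb. Intergenic places make up 55.3% of the unmethylated and 26.6% of the methylated clusters, and intergenic clusters are the larger number in every distance step after the first.

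The genic cluster with the most positions was in an intron of Lncppara, a noncoding transcript near Ppara, the receptor that controls fatty acid oxidation. It held 304 listed positions over 1423 bp (chr15:85670578-85672000), 16962 bp downstream of the nearest start. Its levels were 0.105% lowest, 0.311% in the median and 0.806% highest in the Control samples, and 0.0413% lowest, 0.227% in the median and 0.963% highest in the Ikaros samples. The series overlapped throughout, with means of 0.353% ± 0.167 (SD, n = 18) and 0.296% ± 0.222 (SD, n = 18). The Prr7 cluster (chr13:55471276-55473040, nearest start Mir6944) held 236 positions over 1765 bp of a coding exon, 7009 bp from the start of Prr7 itself, a gene for a membrane adaptor protein. Its levels are given with the comparison of the series. In Pura, whose product binds single-stranded DNA and RNA, the coding exon (chr18:36286728-36287780) held 161 positions at 0.454% ± 0.299 (SD, n = 18) in Control and 0.415% ± 0.287 (SD, n = 18) in Ikaros samples. Foxc1, a forkhead factor of mesoderm and eye development, had 0.855% ± 0.286 (SD, n = 18) and 0.868% ± 0.432 (SD, n = 18) over 130 positions of its exon (chr13:31807866-31808453).

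Next in size were an intron of the noncoding gene C130071C03Rik (chr13:83730623-83731402, 128 positions) and a Trim14 coding exon (chr4:46507062-46507722, 123 positions). The first was at 0.284% ± 0.334 (SD, n = 18) in Control and 0.338% ± 0.450 (SD, n = 18) in Ikaros samples. Trim14, a regulator of antiviral signalling, was higher than most, at 3.31% ± 1.24 (SD, n = 18) and 3.74% ± 2.39 (SD, n = 18). In it single samples reached 5.68% in the Control series and 11.8% in the Ikaros series, and its position means ran from 0.235% to 18.0%.

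Of the 6 intergenic clusters with the most positions, 5 were under 0.5% in both series. Upstream of Mir17hg, the host of the miR-17-92 microRNAs that promote survival of B cell precursors, 152 positions (chr14:115040458-115041295) had levels of 0% lowest, 0.104% in the median and 0.625% highest in Control samples. In Ikaros samples they were 0% lowest, 0.276% in the median and 0.693% highest. Nr4a3, an orphan nuclear receptor induced by antigen receptor signals, had 0.209% ± 0.164 (SD, n = 18) and 0.348% ± 0.507 (SD, n = 18) over 151 positions (chr4:48042946-48043640). Neurod2 encodes a neuronal factor, and the cluster 8759 bp upstream of it (chr11:98338407-98339086) was at 2.78% ± 0.645 (SD, n = 18) and 2.56% ± 0.766 (SD, n = 18). The clusters near Gm44738 (chr7:73617910-73618869) and Hes1 (chr16:30069958-30070830), the latter a target of Notch signalling, had Control means of 0.306% and 0.359% with Ikaros means of 0.347% and 0.432%. The one near Gm12974 (chr4:133813203-133813902) had 0.357% and 0.395%. None of these 6 passed the test between the series, the smallest adjusted p being 0.154 for Neurod2 (limma, 36 samples).

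Some clusters lay far from any start and were very low too. In an intron of Arid1b, which encodes a subunit of the BAF chromatin remodelling complex, 37 positions (chr17:5189848-5190090) lay 77738 bp from the nearest start, that of the pseudogene Gm15599. Their levels were 0% lowest, 0.272% in the median and 1.61% highest in Control samples and 0% lowest, 0.255% in the median and 1.83% highest in Ikaros samples. The next measured cluster was 151941 bp away and methylated (96.9%). Runx3, a Runt factor of lymphocytes, had a cluster 51691 bp downstream of its nearest start (chr4:135206127-135206518) at 0.604% ± 0.637 (SD, n = 18) and 0.653% ± 0.627 (SD, n = 18). Its nearest neighbouring cluster, at 30335 bp, was at 96.8%. The clusters downstream of the chemokine receptor gene Ccr1 (chr9:123924611-123924950, 43742 bp) and upstream of Foxk1 (chr5:142367349-142367952, 33545 bp) had Control means of 0.325% and 0.241%. In Ikaros samples they had 0.395% and 0.244%. Rere, a transcriptional corepressor gene, held one in an intron (chr4:150371751-150372212, 34182 bp) at 0.764% ± 0.427 (SD, n = 18) and 0.807% ± 0.546 (SD, n = 18). The cluster 41003 bp from Rny3 (chr6:47740293-47740621) varied more, from 0% to 8.91% among Control samples around a median of 0.596%. The farthest of all, named after its value was seen, lay 86692 bp from the pseudogene Rps18-ps2 (chr4:9027951-9028215) and was close to the limit with 8.15% ± 3.89 (SD, n = 18) and 9.37% ± 3.87 (SD, n = 18), and only 6 of its 28 positions had a value in every sample.

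Distance depends on the annotation used. RefSeq transcripts of GRCm38.p6 placed a start within 1 kb of 60 of the 284 clusters (21.1%), 31 intergenic and 29 genic, and inside 13 of them. The share was 10.6% of the methylated and 9.60% of the partly methylated clusters away from GENCODE starts. Among the clusters just named, the RefSeq start of Gm51701 lay 198 bp from the Ccr1 cluster, that of Rere 299 bp from the Rere cluster and that of Gm32998 inside the Hes1 cluster. The Arid1b cluster remained 34194 bp and the Runx3 cluster 52651 bp from a RefSeq start. Of the 55 clusters more than 10 kb from a GENCODE start, 29 were also more than 10 kb from a RefSeq start and 16 were within 2 kb of one.

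By sequence, the unmethylated clusters lay between unmethylated clusters at starts and methylated clusters away from starts. GC content was 66.1% in the median, against 68.5% of unmethylated clusters at starts and 63.0% of methylated clusters away from starts. The ratio of CpG observed to expected was 0.847, against 0.892 and 0.745. By the criteria of over 50% GC, a ratio over 0.6 and a length of at least 200 bp, 198 clusters (69.7%) were islands, compared with 87.6% and 58.9%. They were 322 bp long in the median, against 460 bp at starts, and held 37 positions against 62. For methylated clusters at starts the median GC content was 68.3%, the ratio 0.840 and the share of islands 78.2%.

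Short sequence words were counted in the 200 bases around the middle of each cluster, on both strands. The Sp1 box (GGGCGG), typical of island promoters, was found in 148 of the 284 clusters (52.1%). Its share was 59.5% of the unmethylated clusters at starts, 29.7% of the methylated clusters away from starts and 51.2% of all autosomal clusters. The cyclic AMP response element (TGACGTCA) was rare everywhere, in 9 of the 284 (3.17%) and in 0.456% of the methylated clusters away from starts, with 1.02% over all. Those 9 included the clusters near Ccnd2, Gnai2, Anp32e and Gm22846. Part of the CTCF site (AGGNGGC) was found in 42.3% against 34.4% over all, the E-box (CACGTG) in 7.75% against 5.30%, the Ets core (CCGGAA) in 18.0% against 16.2%, the CCAAT box (CCAAT) in 15.5% against 13.1%, and the TATA box (TATAAA) in 1.76% against 1.31%. For the core of the Ikaros motif (TGGGAA) the share was 9.86%, beside 10.3% over all clusters. The cores of the A box (TGGCNNAGT) and B box (GTTCGANNC) of tRNA genes were found in 2.82% and 2.11%, beside 2.00% and 1.03%. The words share bases with CG-rich sequence in part, and a match shows only that the letters are present.

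Transfer RNA genes stood among these clusters in 7 cases (2.46%), compared with 1 of 1972 methylated clusters away from starts, 1 of 573 partly methylated ones and 4 of 7713 unmethylated clusters at starts. Their places were taken from RefSeq. Starts of tRNA genes were not among the GENCODE or RefSeq starts used for the distances. The 7 clusters thus counted as away from starts although they overlapped annotated tRNA genes. The one of the 7 with the most listed positions, near Ctc1 (chr11:69039932-69040451), covered n-TPcgg3, a proline tRNA gene, with 0.703% ± 0.328 (SD, n = 18) in Control and 0.848% ± 0.726 (SD, n = 18) in Ikaros samples. A cluster near Olfr750 (chr14:51064630-51065177) covered both n-TPagg4 and n-TTtgt3, at 0.415% and 0.373%. The others covered n-TPcgg2, n-TGtcc3, n-THgtg5, n-TFgaa5 and n-TMcat16. Control means over the 7 clusters ran from 0.285% to 0.709% and Ikaros means from 0.155% to 0.945%, and none passed the test between the series (adjusted p from 0.516 to 0.992, limma). RefSeq also lists regulatory elements at 3 clusters. They are a DNase I hypersensitive site and promoter fragment upstream of Pax5 (chr4:44712031-44712252, 0.384% in Control), and VISTA enhancers near Fosb (chr7:19319942-19320242, 1.43%) and in Clmp (chr9:40730814-40731201, 1.06%).

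The neighbourhood of these clusters was often unmethylated too. The nearest other measured cluster was under 10% for 192 of the 284 (67.6%), a share close to the 71.6% of unmethylated clusters at starts and above the 29.3% of methylated clusters away from starts. Within 2 kb, 103 had another cluster, which was under 10% for 86 and at 90% or more for 8. Of other clusters away from starts, 43 of 643 with a neighbour within 2 kb had one under 10%. Joined over gaps of at most 10 kb, the clusters formed 253 stretches, 26 of them with 2 or more clusters (57 clusters in all). The longest held 4 clusters at Tnrc18, at 0.668%, 0.211%, 0.360% and 0.991% in Control samples, and 3 clusters each had Kdm6b, which encodes an H3K27 demethylase, Gm12974 and AC141471.6 as the nearest gene.

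A cluster covering the nearest start itself was measured for 129 of the 284. It was under 10% for 100 of them, at 90% or more for 14 and between for 15, whereas for other clusters away from starts it was under 10% for 204 of 861. The 14 with a methylated start were singled out after their values were seen. They include Rnf220 (0.732% at the cluster and 97.9% at the start, Control means), Sfn (1.10% and 97.7%), both clusters of the early response gene Egr3 (1.39% and 4.10%, with 97.5%), Neurog2 (5.28% and 96.6%) and Dlk1 (1.53% and 97.9%).

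The level was not even along every cluster. Position means over the 36 samples spanned 0.828 percentage points in the median cluster and more than 10 points in 28 clusters, and in 24 of these 28 the highest position lay in the first or last 20% of the cluster. At Tal1, a helix-loop-helix factor of blood stem cells, position means lay between 0.549% and, at the last position, 61.0% along 417 bp of coding exon (chr4:115063280-115063696). The Neurod2 cluster had 48.9% at its first position and 0.580% at its lowest. The widest spans, picked out after the values were seen, were at Ddx19a (0.260% to 89.5%) and in a Runx1 intron (0.355% to 85.0%). Smoothing by the authors joined neighbouring positions, so the steps are less sharp than in single reads.

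**Figure D3:**
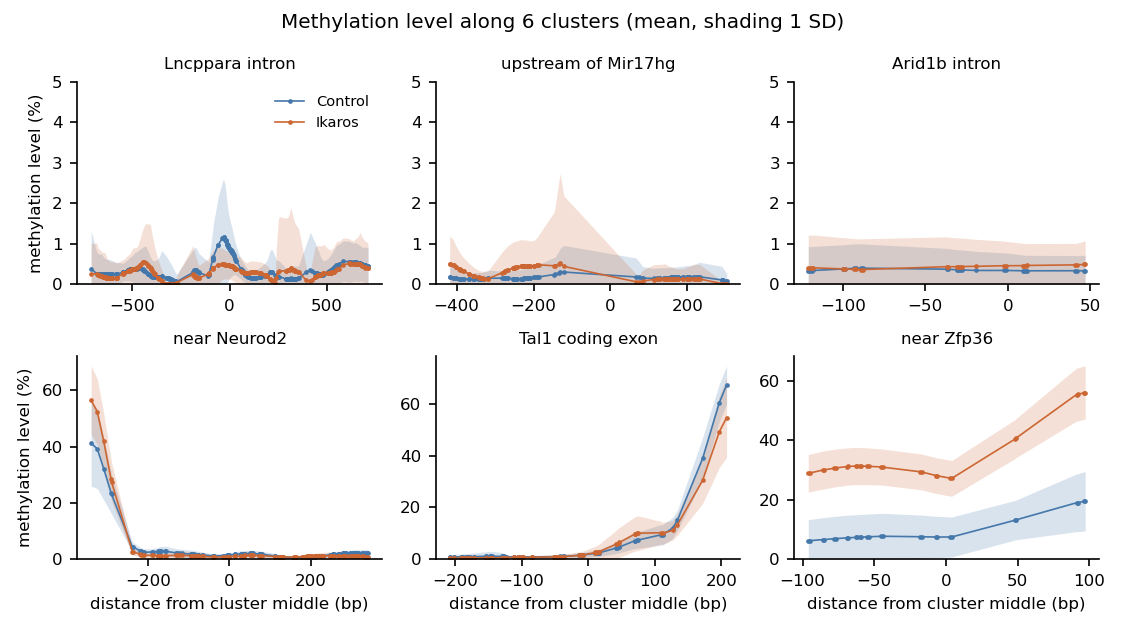
Methylation level in percent against distance in bp from the middle of 6 clusters, as the mean over 18 samples of the Control (blue) and Ikaros (orange) series, with 1 SD shaded and dots at positions with a value in every sample. The Lncppara, Mir17hg and Arid1b clusters stay under 5% throughout, the Neurod2 and Tal1 clusters are higher at one end, at 48.9% and 61.0% over both series, and the series are apart along the whole cluster near Zfp36.

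The nearest start belonged to a protein-coding gene for 184 clusters, a long intergenic noncoding RNA for 34, a processed pseudogene for 24 and an antisense transcript for 12, among 251 different genes. Clusters on chromosome 11 were the most numerous, 37 of the 249 clusters away from starts there (14.9%), and all 19 autosomes had some. To read the nearest genes by role, clusters were counted whose nearest or overlapping gene was in each of 8 gene lists, and the count was set beside all clusters away from starts near the same list. Over all genes the share was 10.0%.

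B-lineage genes, in a list that also held Myc, Ldha, Hk2, Slc7a5, Lig4, Ccnd2 and Ccnd3, had 5 unmethylated clusters among 11 away from starts. Pax5, the factor that commits cells to the B lineage, had 2 of them, and the one with more positions (chr4:44714048-44714537), 3561 bp upstream, was at 1.30% ± 0.382 (SD, n = 18) in Control and 1.72% ± 0.638 (SD, n = 18) in Ikaros samples. Lef1, a nuclear effector of Wnt signalling used by B cell precursors, had one 4021 bp upstream (chr3:131106003-131106450) at 0.577% and 0.662%. Bcl11a, a zinc finger factor needed for early B cells, held one in an intron (chr11:24081955-24082140) at 0.569% and 0.211%. The cyclin gene Ccnd2 had one 2671 bp upstream, in an intron of the noncoding gene 9330179D12Rik (chr6:127154864-127155152), at 0.616% ± 0.460 (SD, n = 18) and 1.05% ± 0.696 (SD, n = 18). Of the other 6 clusters, 4 were at 90% or more. At the starts of these genes 25 of 29 clusters were under 10%.

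Homeobox and paired-domain factors other than Hox genes had 0 of 151 clusters away from starts under 10% and 130 at 90% or more. At their starts 10 of 180 clusters were under 10%. Among 15 clusters near Hox genes 1 was unmethylated, in the coding exon of Hoxb8 (chr11:96284417-96284677), at 1.47% ± 0.785 (SD, n = 18) in Control and 0.631% ± 1.07 (SD, n = 18) in Ikaros samples, while a cluster at its start was at 39.2%. Other developmental transcription factors had 11 of 121. Besides Nr4a3, Neurod2, Foxc1 and Tal1, these lay near Neurog2, Lyl1, Nfix, Hand1, Osr2 and, with 2 clusters, Egr3. Tal1 was the highest of the first 4 at 4.59% ± 1.06 (SD, n = 18) and 4.15% ± 0.815 (SD, n = 18).

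Signalling genes of development had 5 of 68. Notch1, the receptor that drives T cell fate, held one in an intron (chr2:26502395-26502510) at 1.55% ± 1.68 (SD, n = 18) and 0.634% ± 1.70 (SD, n = 18). The Ikaros mean rested in part on Ikaros 18 h replicate 1 with 7.06%. A second gene of the Notch pathway, the ligand Dll4, had one 9255 bp downstream of the start (chr2:119337793-119338210) at 0.385% and 0.297%. The coding exons of Wnt10a (chr1:74803017-74803538), a Wnt ligand, and Gdf15 (chr8:70629654-70630158), a stress-induced cytokine, were at 0.841% and 0.357% in Control and 1.13% and 0.364% in Ikaros samples. Imprinted genes had 1 of 7, upstream of Dlk1 (chr12:109437853-109438030), a Notch-like protein expressed from the paternal copy. It was at 1.53% ± 1.05 (SD, n = 18) in Control and 3.29% ± 2.31 (SD, n = 18) in Ikaros samples, which did not pass the test (adjusted p = 0.0559, limma). Clustered protocadherins had 0 of 2, and replication-dependent histone genes had no cluster away from a start.

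The mean level over the 284 clusters differed little between samples. It was 1.58% ± 0.118 in the Control series and 1.60% ± 0.134 in the Ikaros series (SD, n = 18), with single samples from 1.41% to 1.86% and from 1.40% to 1.84%. By condition (n = 3) the means ran from 1.49% at 24 h to 1.70% at 0 h in the Control series and from 1.54% at 6 h to 1.70% at 24 h in the Ikaros series, and the ranges of the series overlapped. The share of levels listed at exactly 0 over the positions of these clusters was 32.3% ± 7.01 in the Control series, from 22.0% to 45.4%, and 44.6% ± 9.28 in the Ikaros series (SD, n = 18). Ikaros samples spanned 33.7% to 73.2%, with Ikaros 24 h replicate 2 at the top. The shares were also unequal at unmethylated clusters at starts, 40.0% and 52.7%. The part of these zeros in the differences that follow was not tested.

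Clusters were compared between the series with limma, on the mean M-value (log2 of level over 1 minus level, with levels kept between 0.01 and 0.99) over all 36 samples with time point as a factor. All 16734 clusters with a level were fitted, and 810 of them passed an adjusted p of 0.05 (4.84%), 621 higher in the Ikaros series (3.71%) and 189 lower (1.13%). Among the 284 clusters 16 passed, 5 higher and 11 lower, 9 genic and 7 intergenic. Since low Control levels chose the clusters, these numbers and directions are a description. Chosen instead on the Control samples of replicate 1 alone, 282 clusters could be tested on replicates 2 and 3, which the choice had not used. There 7 passed, 4 higher and 3 lower, beside 2.38% of all clusters. The 7 were the clusters near Zfp36, Gm14488, Gm22846 and Rny3 and those in 4930479H17Rik, Tnrc18 and Nol4l.

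The cluster near Zfp36 (chr7:28376448-28376641) had by far the largest difference. Zfp36 encodes tristetraprolin, which speeds the decay of AU-rich messenger RNAs, and the cluster lies 2614 bp from its start and 2339 bp upstream of the antisense transcript Gm44710. Levels were 3.70% lowest, 7.40% in the median and 36.9% highest in the Control series and 28.1% lowest, 34.4% in the median and 44.7% highest in the Ikaros series. The high Control value was that of Control 24 h replicate 2, and the other 17 reached 13.5% at most, below every Ikaros sample. Means were 9.31% ± 7.37 (SD, n = 18) and 34.4% ± 4.34 (SD, n = 18), a difference of 2.75 ± 0.23 (SE) on the M-value scale (adjusted p = 9.08e-10, limma). Without that library the Control mean was 7.69% ± 2.72 (SD, n = 17). At 0 h the Ikaros series was already 23.0 percentage points higher, and at 24 h 21.9. A cluster 473 bp away was at 0.307% in Control samples.

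In 4930479H17Rik the exon cluster (chr7:30347840-30348235) was at 7.58% lowest, 8.79% in the median and 11.3% highest in the Control series, and 9.04% lowest, 12.5% in the median and 15.7% highest in the Ikaros series. The ranges met only between 9.04% and 11.3% (difference 0.78 ± 0.10 (SE), adjusted p = 2.51e-06, limma). The cluster near Gm22846 and Pllp, a myelin membrane protein gene (chr8:94704228-94704567), was at 3.47% ± 2.46 (SD, n = 18) in Control and 9.74% ± 1.89 (SD, n = 18) in Ikaros samples (1.61 ± 0.24 (SE), adjusted p = 3.22e-05, limma). Its Ikaros mean exceeded the Control mean by 8.78 points at 0 h and by 1.04 points at 24 h, where Control replicates 2 and 3 were at 9.22% and 8.18%. Tnrc18 (chr5:142814919-142815685) was low in both series, at 0.668% ± 0.312 (SD, n = 18) and 1.81% ± 0.686 (SD, n = 18), and passed the test (adjusted p = 0.000202, limma). In the Prr7 exon the levels were 0.680% lowest, 1.36% in the median and 2.57% highest for Control and 1.24% lowest, 1.93% in the median and 4.66% highest for Ikaros samples, which overlapped between 1.24% and 2.57% (0.36 ± 0.10 (SE), adjusted p = 0.0324, limma).

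Lower levels in the Ikaros series were seen at 11 clusters, by 0.473 to 5.05 percentage points, and all of them overlapped between the series. The smallest p was that of the cluster 4686 bp downstream of the start of Gm14488 (chr2:30711932-30712357), with 0.688% lowest, 3.35% in the median and 7.45% highest in Control samples and 0% lowest, 0.996% in the median and 1.82% highest in Ikaros samples. Its difference was -1.23 ± 0.16 (SE) (adjusted p = 2.02e-06, limma). Skida1, a gene of the SKI/DACH domain family, had 2.86% ± 0.920 (SD, n = 18) and 1.27% ± 0.801 (SD, n = 18) in its coding exon (chr2:18046809-18047059; adjusted p = 0.000147, limma). The intron of Gm37202, upstream of Gm37170 (chr3:52196169-52196589), had the largest fall in mean level, 7.17% ± 9.36 (SD, n = 18) to 2.12% ± 1.28 (SD, n = 18), but the Control mean rested in part on Control 0 h replicate 1 with 44.0%, and the Control median was 5.19%. On mean levels in place of M-values it did not pass (adjusted p = 0.201, limma). The others lay near Rny3, Gm37820, Gm24240 and AC141471.4 and in Gm26682, Nol4l, Gm26834 and Sox4. Of these Nol4l (adjusted p = 0.134, limma) and Gm26834 (0.121) did not pass on mean levels either, and Gm24240 (0.0513) did not pass without Control 0 h replicate 1. Sox4, a factor that B cell precursors need, was at 1.34% ± 0.621 (SD, n = 18) and 0.552% ± 0.347 (SD, n = 18) in its coding exon (chr13:28952014-28952633; adjusted p = 0.0220, limma).

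All 16 differences kept their sign in each of the 3 replicate numbers and at 0 h, and 14 did so at all 6 time points. Among these 16 clusters Control 24 h replicate 2 lay nearer the Ikaros than the Control median at 11, while the other 17 Control samples did so at 0 to 6 and the Ikaros samples at 10 to 16. Of the 284 clusters 21 passed without it, 20 passed without Control 0 h replicate 1, and 19 passed without Ikaros 24 h replicate 2, beside 4.97%, 5.16% and 4.91% of all clusters. Left without 1 replicate number the count was 8 (replicate 1), 15 (replicate 2) and 8 (replicate 3), beside 2.38%, 3.24% and 2.2% of all clusters, and 6 of the 16 passed in all 3 cases. Under every alternative fit tried 5 of the 16 passed, the clusters near Zfp36, Gm14488 and Gm22846 and those in 4930479H17Rik and Tnrc18. Prr7, Gm24240 and AC141471.4 were lost in each case, Sox4, Gm26834 and Gm26682 without replicate 1 or 3, Skida1 without replicate 1, Nol4l and Rny3 without replicate 3, and Gm37820 without replicate 1 or 2. Among clusters that did not pass, the coding exon of Ryr1 near Gm44408 was at 8.69% and 4.62% (adjusted p = 0.0626, limma).

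**Figure D4:**
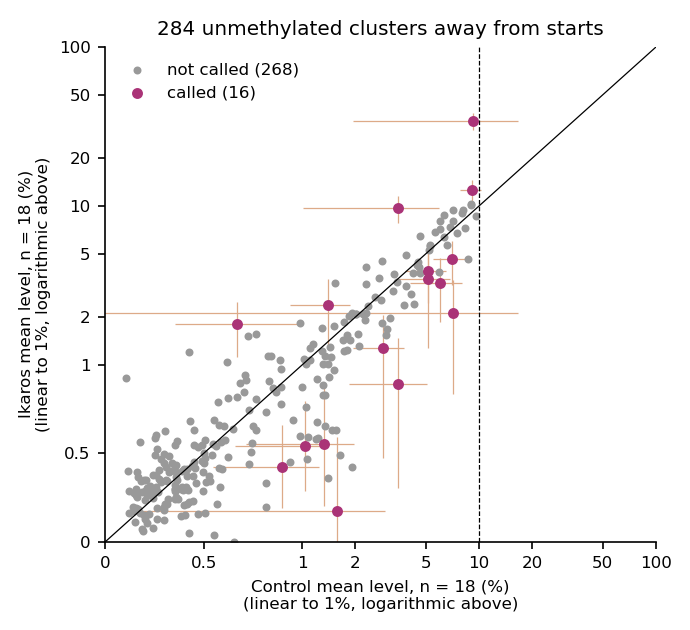
Mean methylation level in percent of the 284 clusters in the Ikaros series against the Control series (18 samples each), on axes that are linear up to 1% and logarithmic above. Purple points are the 16 clusters past an adjusted p of 0.05 in limma, with bars of 1 SD over samples, grey points the other clusters, the solid line equality and the dashed line the 10% limit that chose the clusters. The point at 9.31% and 34.4% is the cluster near Zfp36, and 11 of the 16 purple points lie below the line.

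**Figure D5:**
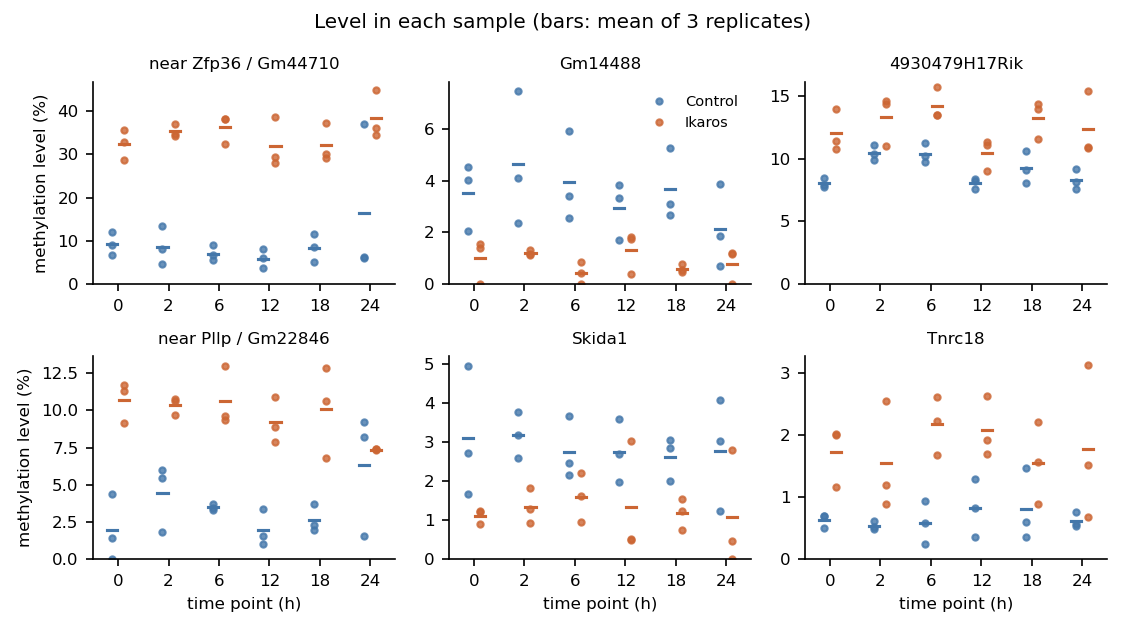
Methylation level in percent by time point in h for the 6 clusters with the smallest p-value between the series, with 1 dot for each of the 3 replicates and a bar for their mean, Control in blue and Ikaros in orange. The cluster near Zfp36 has 1 Control dot at 36.9% at 24 h, and in the Gm14488 and Skida1 panels the Ikaros means lie below the Control means at all 6 times.

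No cluster of the 284 passed a test of change over time. In the Ikaros series 0 of 284 passed (0% of all clusters passed, limma, moderated F test over 18 samples). Of the 284, 8 had an unadjusted p under 0.05, beside 873 of all 16734 clusters. In the Control series 0 of 284 passed (0.012% of all), with 9 at an unadjusted p under 0.05, beside 808 of all 16734. When batch was a fixed factor 1 passed, near Anp32e, beside 6 of all 16734. A different course over time in the 2 series was called at 0 of 284 (0% of all). Here 10 had an unadjusted p under 0.05, beside 857 of all 16734.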

How the data were processed

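RRBS levels of 36 samples of the B3 line were used. The authors trimmed reads (Trim Galore), mapped them to GRCm38 and called methylation with Bismark 0.10.1 (the version in the submitters' processing notes), capped very high coverage and smoothed levels within clusters with BiSeq. The authors deposited smoothed levels as a fraction from 0 to 1, given here as percent, and M-values on a log2 scale from levels limited to 0.01 to 0.99. Neither table holds coverage, so the read depth at a position is unknown, and smoothing ties neighbouring positions together.

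Groups, times, replicate numbers and batches came from the labels. Clusters were rebuilt from 1116417 listed positions, of which 895908 had a value in all 36 columns, giving 18009 clusters, 16734 of them with a level and 16391 of these on autosomes. Places came from GENCODE M21 and RefSeq (GRCm38.p6), both of the files' build, with Python 3.11.15, numpy 2.4.6, pandas 2.3.3, pysam 0.24.0 and bedtools 2.31.1. A cluster over several kinds of place was given coding exon first, then untranslated region, noncoding exon and intron.

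Clusters were tested with limma 3.58.1 in R 4.3.3 (lmFit, eBayes, Benjamini-Hochberg over all 16734 clusters, adjusted p under 0.05), for the series with time as a factor, for time within a series, and for their interaction. The steps were tested on simulated clusters. The clusters and gene lists were chosen with earlier results of these data known. Named by rule are the 6 genic and 6 intergenic clusters of most positions, the 6 farthest from a start (1 per nearest gene), the 6 largest differences, the 6 smallest p-values, 3 clusters on each side of the limit, and up to 4 clusters for each gene list. The labels pair samples by batch through the replicate number, and the mean correlation of deviations between same-numbered samples was 0.00515 over the 284 clusters (198 pairs). Repeats of the experiment count as replicates. The sequences of some named clusters are not reported here. The other omics data of the study were not analysed here.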

Additional observations from a re-analysis of the deposited data

How the results depend on the processing

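The number of clusters was 284 under the rule, and 114 when only those over 5 kb from a start were taken, 446 with the starts of protein-coding genes alone, and 162 with at least 20 CG dinucleotides required in place of 20 listed positions. Under the other 10 choices it stayed within 1.5 times 284. For the series, 16 of the 284 clusters passed, and without 1 replicate number from 8 to 15. Without 1 of 3 single libraries from 19 to 21 passed, and 7 of 282 when clusters were chosen on Control replicate 1 and tested on replicates 2 and 3, a fit with fewer samples. With a replicate block, which pairs the samples by number, 17 passed, beside 820 of all 16734 clusters. The 17 were the same 16 and a cluster near Egr3, and no other call changed. With batch as a fixed factor 1 cluster, near Anp32e, passed for change over time in the Control series, beside 6 of all 16734, where 0 of the 284 did otherwise. The cause was not tested. The median Ikaros minus Control difference over the 284 clusters was -0.0242 percentage points and negative under all alternatives tried, from -0.0474 (without replicate 1, and when chosen on Control replicate 1) to -0.0210 (without Control 24 h replicate 2). Without 1 replicate number the difference changed sign at 14 of 46 named clusters, 0 of which had passed the test between the series, and at D730005E14Rik it went from -1.03 to 0.777 points without replicate 1.

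The main limits are the unknown coverage of each position, smoothing over neighbouring positions, and the limit of 1% on the levels behind the M-values, which narrows differences at low levels. On mean levels, which have no such limit, 15 clusters passed, beside 906 of all 16734. Of the clusters that passed on M-values, Gm37170, Nol4l and Gm26834 did not, and the 15 include clusters that had not passed on M-values. Listed zeros differ between the series. RRBS covers MspI fragments only, and the distance to a start depends on the annotation.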

Other observations

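Immediate early genes, which cells switch on within minutes of a signal, recurred among the nearest genes. A list of 30 such genes was written after the nearest genes had been seen, so its count is no test. Of 20 clusters away from starts near these genes 11 were among the 284, 5 were partly methylated and 4 were at 90% or more. The low ones lay near Jund (0.162% in Control and 0.396% in Ikaros samples), Nr4a3, Dusp6 (0.254% and 0.492%), Egr1 (0.319% and 0.242%, 26002 bp downstream), Ier2 (0.429% and 0.685%), Nr4a1 (0.451% and 0.630%, 7449 bp upstream), Klf10, Zfp36l1, Fosb and, with 2 clusters, Egr3. Zfp36l1, whose product degrades messenger RNAs, was listed at 0 in all 18 Ikaros samples and had a Control mean of 0.655%. Of the genes with a low cluster, Nr4a1 also had a methylated one, at 97.8% in a coding exon 2443 bp upstream of a start, and Nr4a3 a partly methylated one, at 68.0% in Control and 69.1% in Ikaros samples.

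Chromosome X was left out of the choice. There 17 of 56 clusters over 1 kb from a start were under 10% in the Control samples. Of these 9 lay in Bcor, a corepressor that binds BCL6, at 0.178% to 8.34% in Control samples, and 3 lay 14577 to 22727 bp from Gm14512. The Bcor cluster with the highest level, 1068 bp from a start, was at 8.34% in Control and 2.05% in Ikaros samples.

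A further 6 autosomal clusters away from starts were at 10% or more in the Control samples and under 10% in the Ikaros samples. They include one near Pik3r1 (13.1% and 7.53%, 33251 bp from the start) and one in Cxxc5 (15.2% and 7.22%), the latter a CXXC zinc finger gene.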
